A study of Homo sapiens with 27 samples.

Results

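The genes described here are RN7SK, HEXIM1, HEXIM2, CDK9, CCNT1, CCNT2, LARP7, MEPCE and AFF4, which encode the 7SK ribonucleoprotein and the transcription elongation factor P-TEFb. They were taken by name, as 9 of the 58233 entries of the gene tables, and each name matched 1 entry apart from a second entry for the 7SK RNA that is described below. The cells were HL-60, an established human promyelocytic leukaemia line, sequenced as 27 libraries, each of a different group, so that nothing was replicated. Nascent RNA, captured after labelling in cells by click chemistry, was sequenced after 100 µM DRB, after 0.8 µM actinomycin D (ActD), after the vehicle DMSO and from untreated cells, and total RNA from untreated cells. H2A.Z, a variant of histone H2A, and acetylated H2A.Z (acH2A.Z) were mapped by chromatin immunoprecipitation (ChIP) for DRB, ActD and DMSO, and for cells labelled siMyc and siNTC. RNA immunoprecipitation (RIP) with antibodies to H2A.Z, acH2A.Z and Tip60, an acetyltransferase of H2A.Z, was available for untreated cells. How long cells were treated was not stated, and the siMyc cells had no RNA table here, so the level of the targeted transcript could not be checked.

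P-TEFb is the kinase CDK9 with a T-type cyclin, CCNT1 or CCNT2. It phosphorylates RNA polymerase II, DSIF and NELF, and so lets paused polymerase go on into the gene. Much of it is held inactive on 7SK, an abundant small nuclear RNA made by RNA polymerase III, where HEXIM1 or HEXIM2 blocks the kinase, LARP7 holds the 3′ end of the RNA and MEPCE caps its 5′ end. AFF4 is the scaffold of the super elongation complex, which takes up released P-TEFb. DRB is a nucleoside analogue that inhibits CDK9, and ActD intercalates into DNA and blocks transcription, and in cultured cells both agents are known to free P-TEFb from 7SK.

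RefSeq promoter windows (GRCh38.p14, 250 bases before to 50 after a start) matched 8 of the 9 genes in 13 windows, and not RN7SK. The 5 windows below are shown because an acH2A.Z peak covered each of them under DMSO and because the peak differed under DRB at CCNT1, AFF4, HEXIM2 and CDK9, with HEXIM1 as the neighbour of HEXIM2. Capitals mark the motifs searched, TATAAA and CACGTG, on both strands. TATAAA was present in 1 of the 13 windows, that of HEXIM1, with its first base at -29 from the start, against 11.5% of 35116 promoter windows. CACGTG was present in 3 windows, against 7.26% of all, with its first base at -54 from the AFF4 start, -234 from the CCNT1 start and -124 from a MEPCE start. The CDK9 window and the window at the second start of HEXIM2 held neither, and the CDK9 window was 82% G and C.
HEXIM1, plus strand, chr17:45148225-45148524: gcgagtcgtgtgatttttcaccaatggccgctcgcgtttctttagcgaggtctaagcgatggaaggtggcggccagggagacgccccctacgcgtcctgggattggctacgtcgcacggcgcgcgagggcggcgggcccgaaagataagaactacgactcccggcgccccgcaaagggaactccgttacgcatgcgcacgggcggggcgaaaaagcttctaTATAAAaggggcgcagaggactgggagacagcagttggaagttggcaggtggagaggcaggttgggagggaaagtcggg
HEXIM2, second start, plus strand, chr17:45161625-45161924: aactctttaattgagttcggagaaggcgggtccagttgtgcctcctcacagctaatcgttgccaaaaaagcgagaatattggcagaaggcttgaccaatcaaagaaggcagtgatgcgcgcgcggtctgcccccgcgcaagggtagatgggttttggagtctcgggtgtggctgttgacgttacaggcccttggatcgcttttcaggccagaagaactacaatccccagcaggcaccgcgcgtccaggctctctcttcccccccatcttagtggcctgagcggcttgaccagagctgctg
CDK9, plus strand, chr9:127785784-127786083: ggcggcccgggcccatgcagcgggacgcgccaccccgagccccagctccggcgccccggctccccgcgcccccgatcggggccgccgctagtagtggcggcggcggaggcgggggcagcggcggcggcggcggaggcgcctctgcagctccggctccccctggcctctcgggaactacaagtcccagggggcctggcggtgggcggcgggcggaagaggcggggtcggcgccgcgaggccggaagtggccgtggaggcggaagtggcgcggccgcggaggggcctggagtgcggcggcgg
CCNT1, minus strand, chr12:48716658-48716957: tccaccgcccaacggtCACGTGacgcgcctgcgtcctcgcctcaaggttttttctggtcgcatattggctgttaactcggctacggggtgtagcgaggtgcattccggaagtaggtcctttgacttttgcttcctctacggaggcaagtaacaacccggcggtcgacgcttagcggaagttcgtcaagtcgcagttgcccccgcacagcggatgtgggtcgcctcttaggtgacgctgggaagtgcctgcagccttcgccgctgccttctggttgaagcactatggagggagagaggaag
AFF4, minus strand, chr5:132963585-132963884: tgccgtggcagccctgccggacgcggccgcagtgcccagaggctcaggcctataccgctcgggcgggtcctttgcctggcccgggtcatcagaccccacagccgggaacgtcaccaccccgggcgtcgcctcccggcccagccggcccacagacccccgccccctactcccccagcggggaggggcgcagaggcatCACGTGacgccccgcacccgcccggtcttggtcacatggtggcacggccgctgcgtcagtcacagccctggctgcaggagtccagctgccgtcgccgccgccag

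The RNA libraries held 12600067 to 25167597 expected counts. Mitochondrial genes took 66.5% of counts under DRB, 56.9% under ActD and 45.9% under DMSO, against 0.56% of untreated nascent and 0.649% of total RNA, so levels are given as CPM, the expected count scaled to the summed count of all other genes. Log2 ratios add 1 CPM to each level, and a gene was measured where the pair of libraries averaged at least 1 CPM and held at least 20 counts. Their 95% intervals are exact binomial and cover counting error only, and higher or lower means by at least 2-fold. The median measured gene stood at a log2 ratio of -0.83 for DRB against DMSO and -1.05 for ActD against DMSO, and these comparisons share the DMSO library. From the deposited TPM, ratios were taken after mitochondrial genes were left out. Of 10 promyelocyte markers, 9 reached 1 CPM in all 5 libraries, with a summed level of 1518 to 4394 CPM, and ELANE was at 0 in 4 of them. Erythroid, lymphoid, and epithelial and fibroblast lists each summed to at most 10.1 CPM, the lymphoid list being highest under DMSO, and their part in the results was not tested. HBB, CD3D, EPCAM and KRT19 were at 0 in all 5 libraries. In bulk RNA, fewer cells of a type and less RNA per cell cannot be told apart.

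RN7SK, the RNA itself, was the only one of the 9 genes above the vehicle under both inhibitors by at least 2-fold. It is 332 bases long at chr6:52995620-52995951 on GRCh38. It had 5481 CPM under DRB, 7584 under ActD and 2119 under DMSO, and 32076 CPM in untreated nascent and 34663 CPM in total RNA. In CPM both inhibitor libraries were thus above DMSO and far below the untreated libraries. From the deposited TPM with mitochondrial genes left out, the distances were smaller. DMSO was at a log2 ratio of -1.23 to untreated nascent RNA, DRB at 0.79 to DMSO and ActD at 1.36 to DMSO. On that scale ActD was not below untreated nascent RNA. In the TPM as deposited ActD was below it, at 20029 TPM against 29369 TPM. The log2 ratio was 1.37 for DRB against DMSO (interval 1.34 to 1.40), at percentile 88.1 of 12919 genes, and 1.84 for ActD against DMSO (interval 1.81 to 1.87), at percentile 88.4 of 12788 genes. By expected count RN7SK ranked 15 under DRB, 6 under ActD and 33 under DMSO among genes outside the mitochondrial genome, and 3 in both untreated libraries.

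The difference under DRB was close to the 2-fold limit once the second 7SK entry was counted. That entry, named 7SK and 331 bases long against 328 for RN7SK, can share reads with it, so how they were divided is uncertain, and RN7SK held 78.4% of the summed counts under DRB, 75.9% under ActD and 58.4% under DMSO. The entry 7SK alone had 1512 CPM under DRB and 2406 under ActD, against 1508 under DMSO. Both entries together had 6993 CPM under DRB and 3627 CPM under DMSO, a log2 ratio of 0.95, and 9990 CPM under ActD, a log2 ratio of 1.46. The DRB ratio was 0.68 with mitochondrial counts in the denominator and 0.79 from the deposited TPM, so its direction held but not its 2-fold call, whereas the ActD ratio of RN7SK was between 1.36 and 2.89 under every setting tried. The 293 annotated RN7SKP copies together held 0.0205% of such counts under DRB, 0.00842% under ActD and 0.0236% under DMSO.

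**Figure D1:**
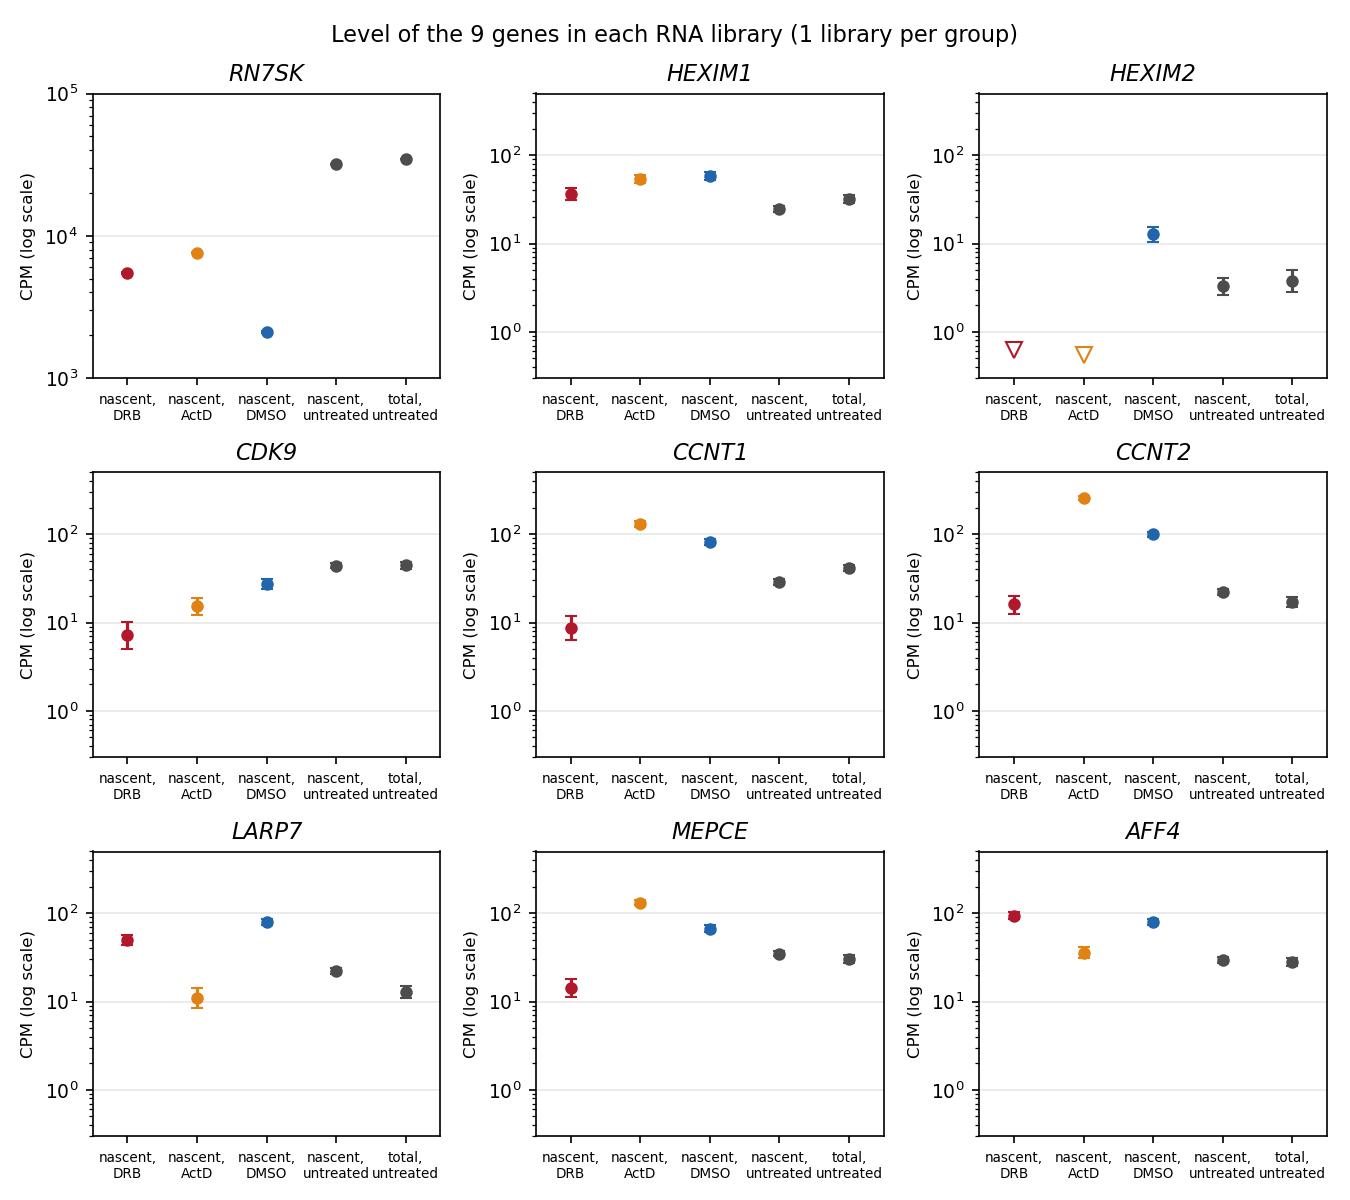
Level of each gene in CPM (log axes, a separate one for RN7SK) in each single RNA library, with exact 95% Poisson intervals and open triangles at the limit of 3 counts where HEXIM2 had 0. In CPM, RN7SK is below its untreated levels in all 3 treated libraries, with DMSO lowest. From the deposited TPM with mitochondrial genes left out, ActD is not below untreated nascent RNA.

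HEXIM1 and HEXIM2 encode the inhibitors that 7SK brings to CDK9, and HEXIM2 alone of the pair was at 0 in both inhibitor libraries. HEXIM1, an intronless gene at chr17:45148475-45152099, had 36.6 CPM under DRB, 53.9 under ActD, 58.3 under DMSO, 24.6 in untreated nascent and 31.8 in total RNA. Its log2 ratio was -0.66 for DRB (interval -0.93 to -0.42) and -0.11 for ActD (interval -0.33 to 0.10), neither past 2-fold, and both turned positive, to 0.17 and 0.94, when centred on the median gene, as did the ActD ratio with TMM scaling, at 0.32. The DRB ratio passed 2-fold lower with mitochondrial counts in the denominator, at -1.29, and from the deposited TPM, at -1.07. HEXIM2, its neighbour at chr17:45160174-45170040, had 0 counts under DRB and 0 under ActD, against 100 counts or 12.8 CPM under DMSO, and it had 3.28 CPM in untreated nascent and 3.81 CPM in total RNA. Against a limit of 3 counts per library it was at least 20.5-fold lower under DRB and at least 23.2-fold lower under ActD. By log2 ratio HEXIM2 stood at percentile 5.57 of measured genes for DRB and 8.41 for ActD. Of 12919 genes measured for DRB, 11154 had counts in both libraries, and of 12788 for ActD, 10881 did. With the counting error of the DMSO count included, the upper 95% limits of the HEXIM2 log2 ratio were weaker, at -4.04 for DRB and -4.21 for ActD. An antisense gene, HEXIM2-AS1, overlaps both genes, and no source here states whether reads were counted by strand, so their reads cannot be told apart from its own.

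All 3 genes of P-TEFb itself were at least 2-fold lower under DRB, as were 47% of all measured genes. CDK9, the kinase and the target of DRB, at chr9:127786034-127790792, had 7.28 CPM under DRB, 15.3 under ActD and 27.3 under DMSO, against 44.2 in untreated nascent and 44.3 in total RNA. Its log2 ratio was -1.77 for DRB (interval -2.47 to -1.39) and -0.80 for ActD (interval -1.22 to -0.47). CDK9 rested on 35 counts under DRB and 83 under ActD. Centred on the median gene its ratios were -0.95 for DRB, just short of 2-fold lower, and 0.25 for ActD. Only under ActD did it thus lie close to the general shift. From the deposited TPM its ratios were -2.57 for DRB and -1.88 for ActD, both past 2-fold lower.

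In CPM the cyclins were far below DMSO in the DRB library and above it in the ActD library, where from the deposited TPM CCNT1 was below it. CCNT1, at chr12:48688458-48716707, had 8.74 CPM under DRB, 132 under ActD and 81.2 under DMSO, with 28.8 in untreated nascent and 41.4 in total RNA. CCNT2, at chr2:134918822-134959342, had 16.0 CPM under DRB, 259 under ActD and 99.5 under DMSO, with 22.3 in untreated nascent and 17.2 in total RNA. Both cyclins were thus lowest in CPM under DRB and highest under ActD, although the counting intervals of CCNT2 under DRB and in total RNA overlapped. CCNT1 had a log2 ratio of -3.08 for DRB (interval -3.70 to -2.76) and 0.69 for ActD (interval 0.54 to 0.86). CCNT2 had -2.56 for DRB (interval -2.99 to -2.30) and 1.37 for ActD (interval 1.25 to 1.51). CCNT1 under ActD passed 2-fold higher on the median gene, at 1.74, and with TMM scaling, at 1.13. The ActD values also depended on length: the mean transcript length assigned to CCNT1 was 6973 bases under ActD and 3178 under DMSO, and from the deposited TPM its ratio turned to -1.07 and that of CCNT2 was 0.27.

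Of the genes of 7SK's constant partners, LARP7 was at least 2-fold lower under ActD and MEPCE under DRB. LARP7, at chr4:112637143-112657586, had 49.9 CPM under DRB, 11.04 under ActD and 80.0 under DMSO, with 22.1 in untreated nascent and 12.9 in total RNA. Its log2 ratio was -0.67 for DRB (interval -0.90 to -0.46), which turned to 0.16 on the median gene and was -1.32 with mitochondrial counts in the denominator, and -2.75 for ActD (interval -3.27 to -2.47). MEPCE, at chr7:100428790-100434118, had 14.4 CPM under DRB, 132 under ActD and 66.8 under DMSO, with 34.9 in untreated nascent and 30.2 in total RNA. Its log2 ratio was -2.14 for DRB (interval -2.60 to -1.85) and 0.97 for ActD (interval 0.82 to 1.15). Among the treated libraries LARP7 was thus lowest under ActD and MEPCE lowest under DRB. MEPCE passed 2-fold higher under ActD with TMM scaling, at 1.40, and on the median gene, at 2.02, and stood at 0.27 from the deposited TPM.

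AFF4, the longest of the genes at 88.2 kb (chr5:132875395-132963634), had 94.0 CPM under DRB, 35.9 under ActD and 80.0 under DMSO, with 29.8 in untreated nascent and 27.9 in total RNA. Its log2 ratio was 0.23 for DRB (interval 0.06 to 0.41), which was 1.06 on the median gene and turned to -0.44 with mitochondrial counts in the denominator and -0.12 from the deposited TPM. For ActD it was -1.14 (interval -1.40 to -0.92), -0.09 on the median gene and -3.14 from the deposited TPM, and the length assigned to AFF4 was 7484 bases under ActD and 2415 under DMSO. AFF4 was the 1 protein-coding gene of the 8 that was not below DMSO under DRB in CPM.

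Counted together, 5 of the 8 protein-coding genes were at least 2-fold lower under DRB than DMSO and none higher, with RN7SK the 1 higher gene. Over all measured genes 47% were lower and 15.6% higher in that comparison, so the count shows nothing particular to these genes. Under ActD, 3 of the 8 were lower, namely HEXIM2, LARP7 and AFF4, and CCNT2 and RN7SK were higher, against 50.7% lower and 19% higher over all genes. The median log2 ratio of the 8 was -1.96 for DRB and -0.46 for ActD, also with HEXIM2 at its bound, beside -0.83 and -1.05 over all genes. Centred on the median gene, 4 of the 8 were at least 2-fold lower and 1 higher under DRB. Under ActD 2 were then lower and 3 higher. The share of all genes past 2-fold after centring was not counted.

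Compared directly in CPM, the inhibitors differed most at the cyclins and MEPCE, and from the deposited TPM most at AFF4. CCNT2 was 16.2-fold, CCNT1 15.1-fold and MEPCE 9.19-fold higher under ActD than under DRB, with log2 ratios of 3.93, 3.77 and 3.11. LARP7 was 4.52-fold lower and AFF4 2.62-fold lower under ActD than under DRB, with log2 ratios of -2.08 and -1.37. From the deposited TPM the log2 ratios kept their directions and were 2.16 for CCNT2, 2.04 for CCNT1, 2.74 for MEPCE, -1.54 for LARP7 and -3.02 for AFF4. Thus 3 of the 8 measured members were higher and 2 lower, against 34.2% higher and 36.3% lower over 10859 genes, and HEXIM2 at 0 in both was not measured. RN7SK, HEXIM1 and CDK9 had log2 ratios of 0.47, 0.55 and 0.97. Among measured genes of any type with a RefSeq span, the median log2 ratio of ActD over DRB fell with span. It was 0.89 for spans under 10 kb, 0.22 for 10 to 50 kb and -0.90 for spans over 50 kb. CCNT1 at 28.2 kb and LARP7 at 20.4 kb, of the middle class, lay on opposite sides of its median.

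**Figure D2:**
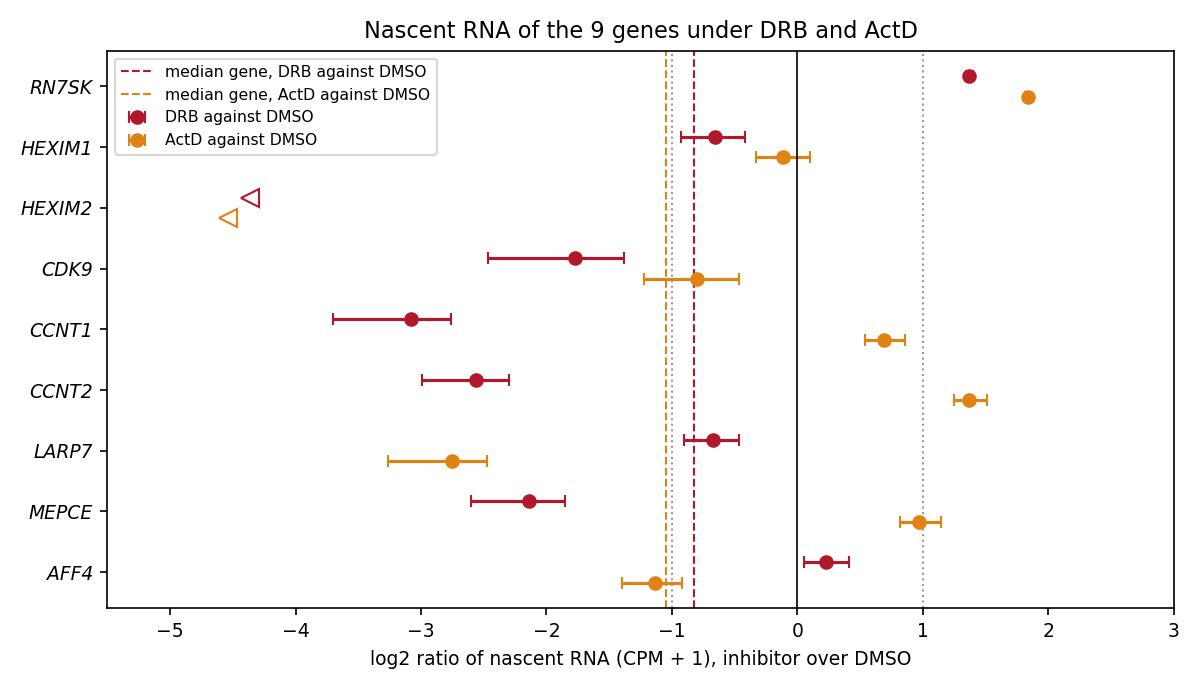
Log2 ratio of nascent RNA (CPM + 1) for DRB over DMSO and for ActD over DMSO, with exact 95% binomial intervals of the count ratio, dotted lines at 2-fold dashed lines at the median measured gene, and open triangles for the HEXIM2 bounds. CCNT1, CCNT2 and MEPCE lie left of 0 for DRB and right of it for ActD, where CCNT1 turned to -1.07 from the deposited TPM.

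Per length, by the deposited TPM, which counts mitochondrial genes in its total, RN7SK stood orders of magnitude above the RNA of the protein-coding genes in every library. It had 10005 TPM under DRB, 20029 under ActD, 7284 under DMSO, 29369 in untreated nascent and 43934 in total RNA. The next gene was AFF4 under DRB with 13.9 TPM, MEPCE under ActD with 18.8 TPM and LARP7 under DMSO with 24.2 TPM. Neighbours whose counting intervals overlapped were AFF4 and LARP7, HEXIM1 to MEPCE, and CDK9 and CCNT1 under DRB. Under ActD they were MEPCE and CCNT2, HEXIM1 and LARP7, and CDK9 and AFF4, and under DMSO CCNT1 to CCNT2, and CDK9 and HEXIM1. In the untreated libraries CDK9 was the highest of the protein-coding genes, at 4.04 TPM in nascent and 5.47 TPM in total RNA, and it overlapped LARP7 in nascent RNA. The lowest was HEXIM2 with 0.6 TPM in untreated nascent RNA and CCNT2 with 0.69 TPM in total RNA, next to HEXIM2 with 0.79 TPM.

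Genes that work with P-TEFb were read from lists chosen for their roles. Of 24 genes of the super elongation complex, bromodomain readers and factors that free P-TEFb from 7SK, 22 were measured. Of these, 8 were lower and 2 higher under DRB, and 9 were lower and 2 higher under ActD. Over all measured genes 47% were lower and 15.6% higher under DRB, and 50.7% lower and 19% higher under ActD. Under DRB the lowest was SRSF2, a splicing factor tied to pause release, with 4.58 CPM against 229 CPM under DMSO (log2 ratio -5.37), and the highest was ELL2, an elongation factor of the complex, with 11.9 CPM under DRB against 1.79 CPM under DMSO (2.20). Under ActD the lowest was EAF1, a partner of the ELL proteins, with 14.5 CPM against 83.3 CPM under DMSO (-2.44), and the highest was MLLT3, a reader subunit, with 79.3 CPM against 2.05 CPM under DMSO (4.72). The list's median log2 ratio was -0.14 under DRB and -0.69 under ActD.

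All 19 genes of the pausing factors, the PAF complex and other kinases of the polymerase tail were measured. Of them, 7 were lower and none higher under DRB, where 47% of all measured genes were lower and 15.6% higher. With ActD, 11 were lower and 2 higher, where 50.7% of all measured genes were lower and 19% higher. The lowest under DRB was CCNH, the cyclin of the TFIIH kinase, with 23.3 CPM against 101 CPM under DMSO (-2.07), and the highest was MNAT1, its assembly factor, with 58.7 CPM against 45.4 CPM under DMSO (0.36). Under ActD the lowest was SUPT4H1, the small subunit of DSIF, with 14.7 CPM against 320 CPM under DMSO (-4.35), and the highest was NELFB, a subunit of NELF, with 116 CPM against 11.1 CPM under DMSO (3.27). The list's medians were -0.75 under DRB and -1.22 under ActD.

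Of 21 other listed transcripts of RNA polymerase III, 5 were measured. Of these, 3 were at least 2-fold higher and none lower under DRB, beside 15.6% higher and 47% lower over all measured genes. With ActD, 3 were higher and 1 lower, beside 19% higher and 50.7% lower over all measured genes. RPPH1, the RNA of RNase P, was highest under DRB with 482 CPM against 122 CPM under DMSO (1.97), and RMRP, the RNA of RNase MRP, was lowest with 7.70 CPM against 10.5 CPM (-0.40, interval -1.05 to 0.13). Under ActD RMRP was highest with 79.1 CPM against 10.5 CPM under DMSO (2.80), and BCYRN1 was lowest with 1 count against 75 counts under DMSO (-3.16, interval of the count ratio -11.03 to -3.19). In untreated nascent RNA RMRP had 1134 CPM and RPPH1 2159 CPM, both above every treated library. BCYRN1, with 3.52 CPM there, was not. The list's medians were 1.28 and 1.07.

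By pattern over the 5 RNA libraries, among 8723 genes with a mean of at least 10 CPM, the gene nearest to RN7SK was another polymerase III RNA. It was RN7SL1, the RNA of the signal recognition particle, at a Euclidean distance of 0.436 in centred log2 levels, with 43498 CPM under DRB, 47631 under ActD, 17943 under DMSO, 268787 in untreated nascent and 218436 in total RNA. WDR90 at 0.644 and SLC35C2 at 0.958 came next. Nearest to HEXIM1 were USP36 at 0.121, LUC7L at 0.142 and CIZ1 at 0.147. Nearest to CDK9 were SUMF2 at 0.307, PDLIM7 at 0.374 and CHMP6 at 0.391. These distances rest on 5 libraries and are descriptions.

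Without inhibitor, the members' levels in untreated nascent and total RNA were close, but the pair of nascent libraries without inhibitor were not. How far the untreated nascent library was enriched for new RNA was not tested. In untreated nascent against total RNA none of the 9 genes differed by 2-fold, where 9.49% of all genes were higher and 17.8% lower. LARP7 had the highest ratio, with 22.1 CPM in nascent and 12.9 CPM in total RNA (log2 0.73), which was 1.07 on the median gene, and CCNT1 the lowest, with 28.8 and 41.4 CPM (-0.51). Between DMSO nascent and untreated nascent RNA, by contrast, 6 of the 8 protein-coding genes were higher and RN7SK was lower, against 46.2% higher and 14.7% lower over all genes, whose median was 0.87. On the median gene or with TMM scaling, CCNT2 was the 1 protein-coding gene still higher, at 1.24 and 1.15, and CDK9 was lower, at -1.54 and -1.63. In CPM RN7SK was 15.1-fold lower under DMSO than in untreated nascent RNA, a larger difference than either inhibitor's against DMSO, but from the deposited TPM its log2 ratio was -1.23, smaller in size than that of ActD against DMSO, 1.36. CDK9 was the 1 protein-coding member below its untreated level, with 27.3 CPM under DMSO against 44.2 CPM (-0.67), which turned to 1.85 from the deposited TPM, and MEPCE (0.92) turned to -0.19 without ribosomal and polymerase III genes in the denominator. The treated libraries also differed from the untreated one in their mitochondrial share, given above, whose part in these values was not tested.

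On chromatin, acH2A.Z peaks lay over or within 1 kb of nearly all the genes. The H2A.Z variant sits at the nucleosomes that flank gene starts, and its acetylation goes with active genes. Peaks were called by the authors in each library separately, so depth and control can differ between the lists. Among the 8 protein-coding members 7 had an acH2A.Z peak under DRB, 7 under ActD and 8 under DMSO, against 66.8%, 57.8% and 57.1% of 20037 protein-coding genes. HEXIM2 was the member without a peak under DRB and CDK9 the one under ActD, and RN7SK had a peak in each list. In siMyc cells 6 of 8 had one and in siNTC cells 8 of 8, against 38.1% and 60.2% of genes, with CDK9 and MEPCE the members without one in siMyc.

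**Figure D3:**
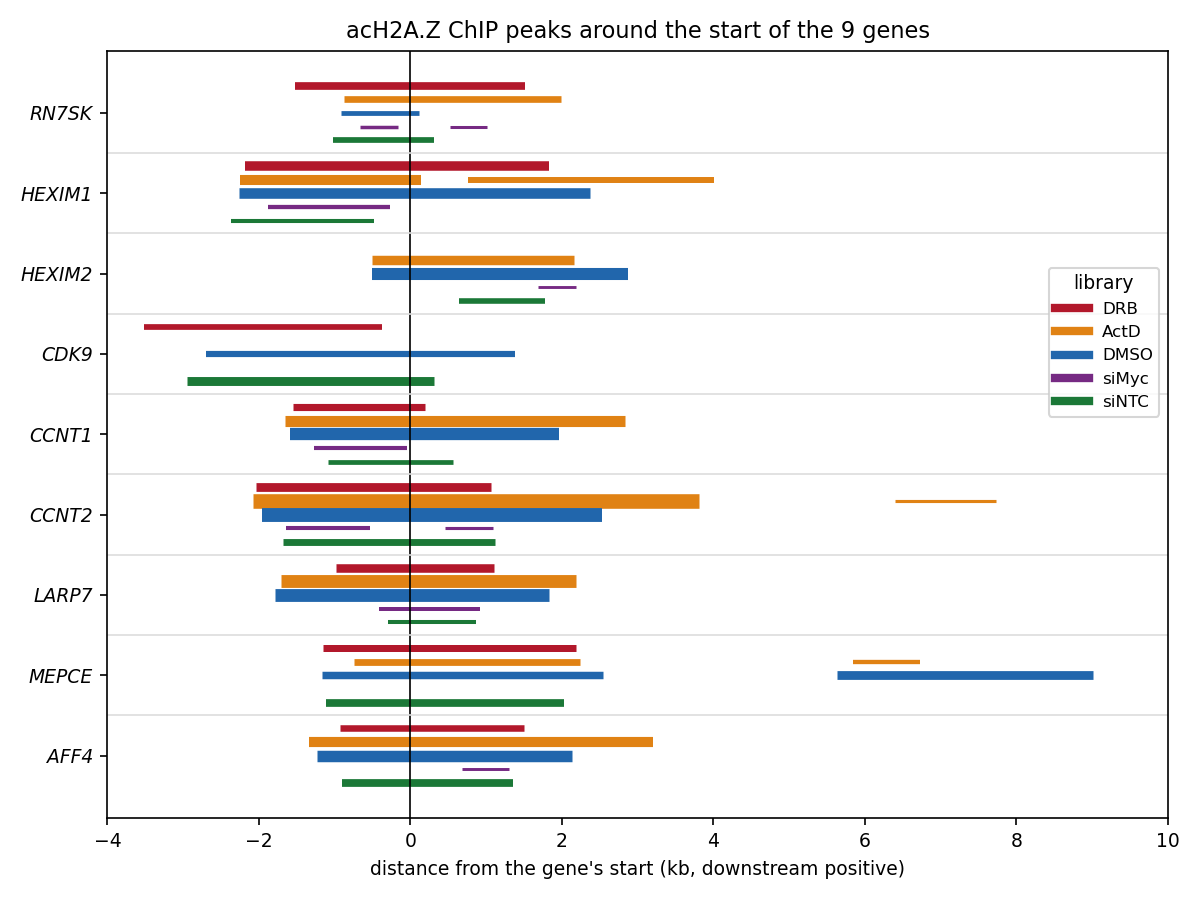
Extent of each acH2A.Z peak within 4 kb before to 10 kb after the start of each gene, for the DRB, ActD, DMSO, siMyc and siNTC libraries from top to bottom in each row, with thicker lines for more normalized tags. Peaks farther into CCNT2, LARP7 and AFF4 are not drawn, the CDK9 peak under DRB ends before the start, and HEXIM2 has no DRB peak.

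The summed tags of acH2A.Z peaks were at least 2-fold lower under DRB than under DMSO at 5 of the 7 protein-coding members with a peak in both, and higher at none, where 36.4% of genes were lower and 17.7% higher. AFF4 had 276 normalized tags over 2.43 kb under DRB and 1224 tags over 3.37 kb under DMSO, a log2 tag ratio of -2.15. CCNT1 had 352 tags over 1.75 kb under DRB and 1448 tags over 3.56 kb under DMSO (-2.04). CCNT2 (-1.63), MEPCE (-1.62) and LARP7 (-1.46) were the other 3, and HEXIM1 (-0.38) and CDK9 (-0.35) were above the median gene at -0.56. The MEPCE ratio rested on a second peak past the gene's end, over its neighbour PPP1R35, with 626 tags under DMSO and none called under DRB, since the peak over its start held 335 tags under DRB and 404 tags under DMSO. The peaks also differed in width, and per kb of peak 3 of the 7 were at least 2-fold lower. These were AFF4 at -1.68, CCNT2 at -1.10 and CCNT1 at -1.01, while LARP7 was at -0.67 and MEPCE at -0.53. The median gene was at -0.46 per kb, and the share of all genes past 2-fold per kb was not counted.

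RN7SK went the other way. Its peak held 436 tags over 3.03 kb under DRB and 293 tags over 2.87 kb under ActD, against 101 tags over 1.04 kb under DMSO. Its log2 tag ratio was 2.10 for DRB, above 93.6% of the genes compared, and 1.53 for ActD, above 97%. Most of this lay in the width of the peak. Tags per kb differed by 0.55 for DRB and 0.06 for ActD on the log2 scale. As listed beside the control, the antibody tags of the RN7SK peak were 233.4 under DRB and 577.7 under ActD. Under DMSO the peak rested on 35.6 antibody tags against 5.8 control tags, 6.12-fold over control. The part of library depth in these widths was not tested. At the HEXIM2 gene the DRB list had no peak within 1 kb, and the ActD peak held 755 tags, against 1385 tags in the DMSO peak.

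Under ActD the members' acH2A.Z was nearer to DMSO. Of 7 protein-coding members with a peak in both, MEPCE was at least 2-fold lower, with 378 tags over 3.88 kb under ActD and 1030 tags over 7.11 kb under DMSO, and none was higher, against 37.7% lower and 6.35% higher over all genes. This call too rested on the peak over PPP1R35, with 69.6 tags under ActD and 626 tags under DMSO, since the peak over the MEPCE start held 309 tags under ActD and 404 tags under DMSO. CCNT2 had the most tags of any member. It held 2251 tags in 5 peaks over 9.55 kb under ActD and 1938 tags in 1 peak over 4.49 kb under DMSO. The ActD peak over its start held 2174 tags. The part of library depth in the number of peaks was not tested. In siMyc against siNTC, 3 of the 6 protein-coding members with both peaks were lower and none higher, against 75.5% lower and 2.32% higher over all genes. AFF4 had 10.3 tags over 0.629 kb in siMyc and 448 tags over 2.27 kb in siNTC. HEXIM2 had 8.85 and 170 tags and CCNT2 69 and 320 tags, whereas LARP7 had 50.6 and 52.9 tags and HEXIM1 65.8 and 54.8 tags. RN7SK had 40.2 tags in siMyc, in 2 peaks on either side of the gene, and 183 tags in siNTC. Its log2 tag ratio was -2.18, beside -3.09 for the median gene. The siMyc list held 3.55% of tags in peaks and the siNTC list 39.9%, if tags are per 10000000, and the part of this in the values was not tested.

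**Figure D4:**
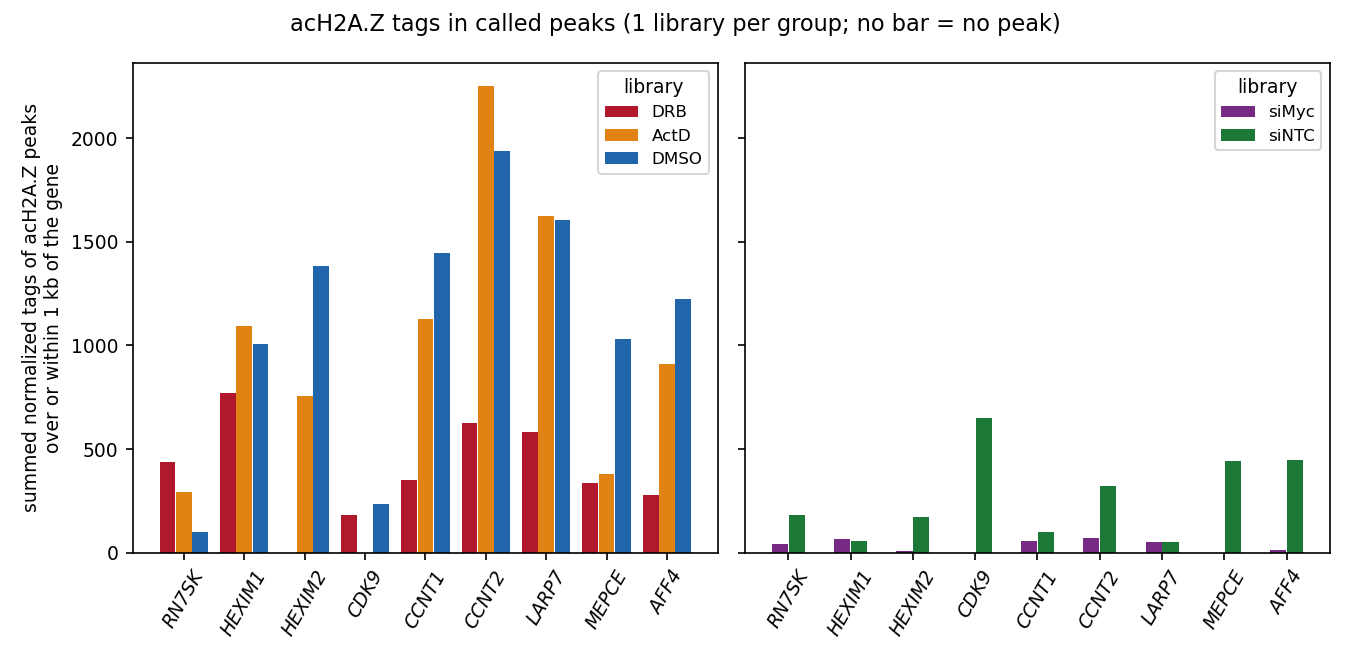
Summed normalized tags of the acH2A.Z peaks over or within 1 kb of each gene, in the DRB, ActD and DMSO libraries on the left and the siMyc and siNTC libraries on the right, with single libraries as bars and no bar where there was no peak. RN7SK is the 1 gene with more tags in both inhibitor libraries than under DMSO by at least 2-fold.

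Peaks of H2A.Z itself were fewer. Of the 8 protein-coding members 4 had one under DRB, 3 under ActD, 3 under DMSO, 4 in siMyc and 2 in siNTC, against 14.7%, 17.1%, 6.72%, 22% and 14.5% of genes, and RN7SK had none in any list. HEXIM2 and CCNT2 had one in each of the DRB, ActD and DMSO lists. The HEXIM2 peak held 67.5 tags under DRB, 19.5 under ActD and 121 under DMSO, and the DMSO peak ranked 10 of 1271 in its list. HEXIM2 thus had an H2A.Z peak under DRB, where it had no acH2A.Z peak. CDK9 had an H2A.Z peak in siMyc with 197 tags and in siNTC with 147 tags, over its start in both, while of this pair its acH2A.Z peak, of 649 tags, was called in siNTC alone.

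In the RIP lists, RN7SK carried the highest peak of the H2A.Z antibody. The peak, at chr6:52995526-52996151, covered the whole gene with 2413 normalized tags, ranked 1 of 99234 by tags, and was 5.21-fold over its control. The antibody library held 8639 tags there and its control 1657 tags. The acH2A.Z antibody gave no peak over the gene but 1 on each side of it, with 26.7 tags downstream and 4.33 tags upstream, and Tip60 gave no peak within 1 kb. RN7SK made up 3.47% of the counts outside mitochondrial genes in total RNA, and the RIP peaks were not scaled to RNA level.

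**Figure D5:**
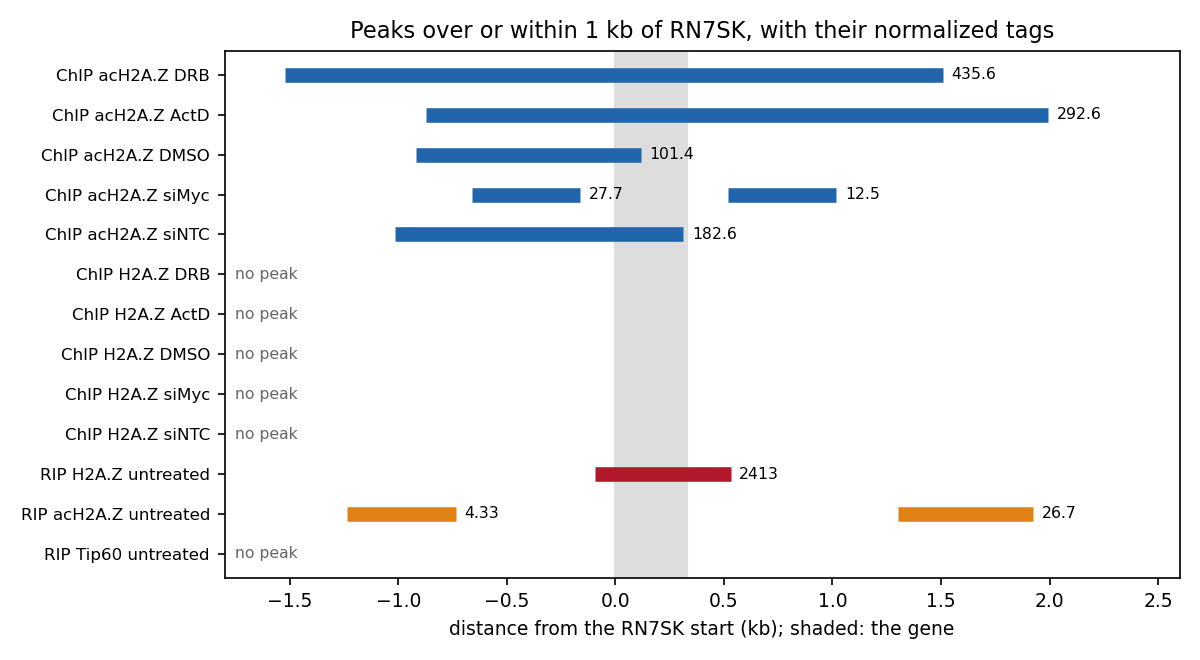
Extent of every peak over or within 1 kb of RN7SK in the 13 peak lists, by distance from the gene's start in kb, with the normalized tags printed beside each and the gene shaded. The H2A.Z RIP peak covers the gene with 2413 tags, and the acH2A.Z RIP peaks flank it.

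At the protein-coding members single RIP peaks held 3.36 to 30.3 tags. Of the 8, 6 had one with H2A.Z, 4 with acH2A.Z and 6 with Tip60, against 60.4%, 79.7% and 79.5% of genes. Peaks grew more frequent with gene span, and of genes over 50 kb 94% had an H2A.Z RIP peak, 97.9% an acH2A.Z one and 98.6% a Tip60 one. AFF4, in that class, had 4, 2 and 8 peaks, where the class medians were 4, 9 and 11. HEXIM1 had the highest of these peaks just past its 3′ end, with 30.3 tags of H2A.Z, and a Tip60 peak of 21.5 tags in the same place. LARP7 and MEPCE had no Tip60 peak, and CDK9 had none of H2A.Z or acH2A.Z and 1 of Tip60 with 8.36 tags.

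The input DNA tables, at 440923 to 469547 counts, gave little at these genes. RN7SK had 1 count in DRB input, 0 in ActD input and 0 in DMSO input, where 0 counts allow up to 3 counts. HEXIM1 had 23, 22 and 30 counts and CCNT2 45, 41 and 47 counts in the same order, and the counting intervals overlapped between treatments for both genes.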

How the data were processed

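RNA was measured in 5 libraries, histone ChIP in 10 peak lists, RIP in 3 and input DNA in 3. Per the submitters' processing notes, reads were trimmed with Trim Galore and cutadapt, checked with FastQC and aligned to GRCh38 with STAR 2.5.2b, and peaks were called with HOMER. The deposited gene tables give expected counts and TPM per gene, and also FPKM, which were not used, and no source here names the quantifier or annotation. The deposited peak lists give each peak's normalized tag signal, score, fold ratio over control and p-value, per the file headers, and every listed peak was at least 4-fold over a control that was not named. The 6 IgG libraries were not analysed here.

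CPM was computed from the deposited expected counts without mitochondrial genes, with a pseudocount of 1 CPM, a filter of a mean of 1 CPM and 20 summed counts, and a call at 2-fold. There was 1 library per group, so no test was made, and 95% intervals are exact and cover counting error only, since no molecular identifiers were given. Peaks were assigned within 1 kb of a gene by the coordinates of RefSeq on GRCh38.p14. The computation was tested on simulated data. Versions were Python 3.11.15, pandas 2.3.3, SciPy 1.17.1 and edgeR 4.0.16, the last for TMM factors only. Besides the members, the highest and lowest gene of each list under each inhibitor are named, and for RN7SK, HEXIM1 and CDK9 the 3 genes nearest in pattern. The members and lists were chosen with earlier results of these data known.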

Additional observations from a re-analysis of the deposited data

How the results depend on the processing

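No paired analysis was possible because each group had 1 library. No value called as reported turned to the other sign, but values not called there did between settings: CCNT1 under ActD against DMSO was 1.74 centred and 1.13 with TMM scaling but -1.07 from TPM, and CDK9 in DMSO against untreated nascent RNA was -1.54 centred and -1.63 with TMM scaling but 1.85 from TPM. Against DMSO under DRB the members called higher, 1 as reported, were 0 with mitochondrial genes in the denominator, 2 centred on the median gene, and, in settings chosen after seeing the data, 0 from TPM and 0 with the entry 7SK added. Under ActD those higher, 2 as reported, were 4 centred, 4 with TMM scaling and 1 from TPM, and those lower, 3 as reported, were 5 from TPM. For ActD against DRB those lower, 2 as reported, were 1 with mitochondrial genes in the denominator. For untreated nascent against total RNA those higher, 0 as reported, were 1 centred and 1 without ribosomal and polymerase III genes in the denominator. For DMSO against untreated nascent RNA those higher, 6 as reported, were 1, and those lower, 1 as reported, were 2, with mitochondrial genes, without ribosomal and polymerase III genes, centred and with TMM scaling. Members with an acH2A.Z peak in siMyc, 7 as reported, were 4 for overlap with the gene itself and 2 at 8-fold over control. Members with an H2A.Z peak became 0 at 8-fold in ActD, siMyc and siNTC, and 1 in siNTC for overlap with the gene itself, and the H2A.Z RIP count, 7 as reported, was 4 at 8-fold. Of the single member values and background shares of genes with a peak, 150 moved and 263 did not. A member value moved if it changed by at least the average reach of its counting interval to either side. HEXIM2 counted as unmoved where its interval was open. A background share moved if it changed by over 1.5 times. Of the counts of members, 26 moved by over 1.5 times, or to or from 0, and 124 did not. The cause was not tested. TMM scaling was not run for untreated nascent against total RNA. Depth limits HEXIM2, CDK9 and CCNT1 under DRB most, at 0, 35 and 42 counts.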
